A study of Mus musculus with 12 samples.

Results

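The 10 genes described here belong to the BCL2 family, whose proteins decide at the mitochondrial outer membrane whether a cell dies by apoptosis. They were taken by symbol from a table of read counts for 24328 genes, and all 10 were present: Bcl2, Bcl2l1, Mcl1, Bcl2a1a, Bcl2a1b and Bcl2a1d on the survival side, and Bcl2l11, Bid, Bak1 and Bax on the death side. All 10 also passed the filter on low counts. RNA was sequenced from FACS-sorted microglia, macrophages that live in the brain, of WT Balb/c mice (12 libraries, 4 mice per group). Allogeneic mice had been lethally irradiated and given 5000000 bone marrow cells with 300000 T cells from an allogeneic source, and were killed by perfusion on day 14, the peak stage of graft-versus-host disease per the labels. Syngeneic mice went through the same irradiation, cell doses and time with syngeneic cells, so both transplanted groups share the irradiation. Control mice were untransplanted, and the labels name no irradiation, time or handling for them beyond that. The sources used here give no age, sex, donor strain, sort gate or sequencing batch.

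BAX and BAK1 are the effectors of the pathway: once active, they form pores in the outer membrane, cytochrome c leaks out and caspases are switched on. BCL2, BCL-XL (from Bcl2l1), MCL1 and A1 (from the Bcl2a1 genes) hold the effectors in check, and BH3-only proteins such as BIM (from Bcl2l11) and BID counter the survival proteins or activate the effectors. In mouse myeloid cells A1 is known as an inducible, short-lived survival protein and a target of NF-kappaB, Bax is a classic p53 target gene, and microglia depend on signalling through the receptor CSF1R to stay alive.

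Mouse A1 is encoded by several near-identical copies, which bears on every Bcl2a1 value below. The coding sequences of Bcl2a1a, Bcl2a1b and Bcl2a1d are 519 bases each in GENCODE vM21 transcripts and differ at 12 positions in all. Bcl2a1a differs from Bcl2a1b at 11 bases, Bcl2a1a from Bcl2a1d at 7 and Bcl2a1b from Bcl2a1d at 6. The first 60 coding bases hold 6 of the 12 variable positions and are shown, with those positions in capitals, because reads from such stretches can be told apart while reads from the rest often cannot.
Bcl2a1a: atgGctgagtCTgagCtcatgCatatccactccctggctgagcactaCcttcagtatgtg
Bcl2a1b: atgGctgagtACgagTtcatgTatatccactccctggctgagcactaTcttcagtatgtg
Bcl2a1d: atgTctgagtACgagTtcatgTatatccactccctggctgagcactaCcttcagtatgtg

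Of all 50-base windows of the transcript, 69.0% in Bcl2a1a, 57.6% in Bcl2a1b and 79.5% in Bcl2a1d occur unchanged in another copy. With 100-base windows these shares were 43.5%, 31.1% and 54.7%. The sources used here give neither the read length nor the way shared reads were counted, so the split of reads between copies is uncertain, and the copies were also tested as 1 summed gene together with the fourth copy, Bcl2a1c.

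The promoters of the copies are also close to identical. RefSeq promoters (GRCm38.p6) were found for all 10 members, 13 windows in all. The stretch of 250 bases before each annotated start is shown for the 3 copies, because they rose together across the groups. Capitals mark GAGGAAGT, a form of the site bound by PU.1, the master transcription factor of macrophages, searched on both strands.
Bcl2a1a, chr9:88956670-88956919, + strand: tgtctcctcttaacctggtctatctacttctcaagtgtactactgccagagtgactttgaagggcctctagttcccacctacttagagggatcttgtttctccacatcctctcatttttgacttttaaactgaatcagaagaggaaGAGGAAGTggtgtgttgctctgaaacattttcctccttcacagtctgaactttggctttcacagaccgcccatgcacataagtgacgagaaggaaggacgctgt
Bcl2a1b, chr9:89199023-89199272, + strand: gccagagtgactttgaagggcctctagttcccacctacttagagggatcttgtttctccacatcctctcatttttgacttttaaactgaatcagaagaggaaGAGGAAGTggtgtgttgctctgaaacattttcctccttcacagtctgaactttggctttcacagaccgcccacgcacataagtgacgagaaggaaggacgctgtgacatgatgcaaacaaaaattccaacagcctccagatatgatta
Bcl2a1d, chr9:88731851-88732100, - strand: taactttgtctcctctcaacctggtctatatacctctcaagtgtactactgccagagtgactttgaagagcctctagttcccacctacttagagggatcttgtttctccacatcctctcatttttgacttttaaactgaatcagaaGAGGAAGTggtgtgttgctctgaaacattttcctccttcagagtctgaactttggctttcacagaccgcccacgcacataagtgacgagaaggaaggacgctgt

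The best local alignment of the whole RefSeq windows, which run from 250 bases before to 50 after the start, was 99.2% identical between Bcl2a1a and Bcl2a1b, 96.0% between Bcl2a1a and Bcl2a1d and 96.5% between Bcl2a1b and Bcl2a1d. Motifs were searched in the 250 bases before each start. The shorter string GAGGAA, which the PU.1 string contains, occurred 3 times in Bcl2a1a, 3 times in Bcl2a1b and 2 times in Bcl2a1d, with 1 tandem repeat fewer in Bcl2a1d. It also occurred 1 time each in the windows of Bcl2, Bid and Bak1. GAGGAAGT was found in the Bcl2a1 windows and in that of Bak1, and 2.44% of 32851 mouse promoters hold it in the same 250 bases; for GAGGAA that share was 23.3%. The NF-kappaB consensus was found in 1 of the windows of Bcl2l1 and in no other member's (3.90% of all windows), the p53 half-site consensus in the Bax window alone (7.13%), and the interferon motifs GAAANNGAAA (2.98%) and TTCNNNGAA (7.02%) in no member's. These are matches of letters in short windows of the reference strain and say nothing of binding.

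Levels are counts scaled to a common library total (CPM), after adjustment of library sizes by TMM factors, and values in each group are given in the order of replicates 1 to 4. A gene was called when edgeR's quasi-likelihood test, fitted to all 12 libraries, gave a Benjamini-Hochberg adjusted p under 0.05 over the 12695 genes tested, and "rose" and "fell" refer to called genes. The 3 comparisons (allogeneic with syngeneic, syngeneic with control, allogeneic with control) share libraries, each group standing in a pair of them. Since all values come from sorted populations, fewer cells of a type and less RNA per cell cannot be told apart.

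Library totals were 35559202 to 42641198 counts in allogeneic, 36422729 to 46126118 in syngeneic and 32652208 to 45439607 in control libraries. The 13 microglia markers summed to 41333 to 42974 CPM in allogeneic, 56037 to 59098 CPM in syngeneic and 57363 to 65943 CPM in control libraries with none of them at 0. Of these markers 1 rose and 9 fell in allogeneic against syngeneic, and 7 rose and 5 fell in syngeneic against control. Of all genes tested, 10.1% rose and 6.38% fell in the former comparison, and 26.4% rose and 25.6% fell in the latter. TMM factors were lowest in allogeneic libraries, and with library totals in their place the median over all genes shifted to -0.22 on the log2 scale in allogeneic against syngeneic, -0.20 for syngeneic over control and -0.44 for allogeneic over control. Across genes, log2 fold changes fell with GC content in syngeneic against control (Spearman rho -0.29) and allogeneic against control (-0.28) and with exon length in allogeneic against syngeneic (-0.20); genes are not independent, and an offset for both properties was fitted as an alternative.

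**Figure D1:**
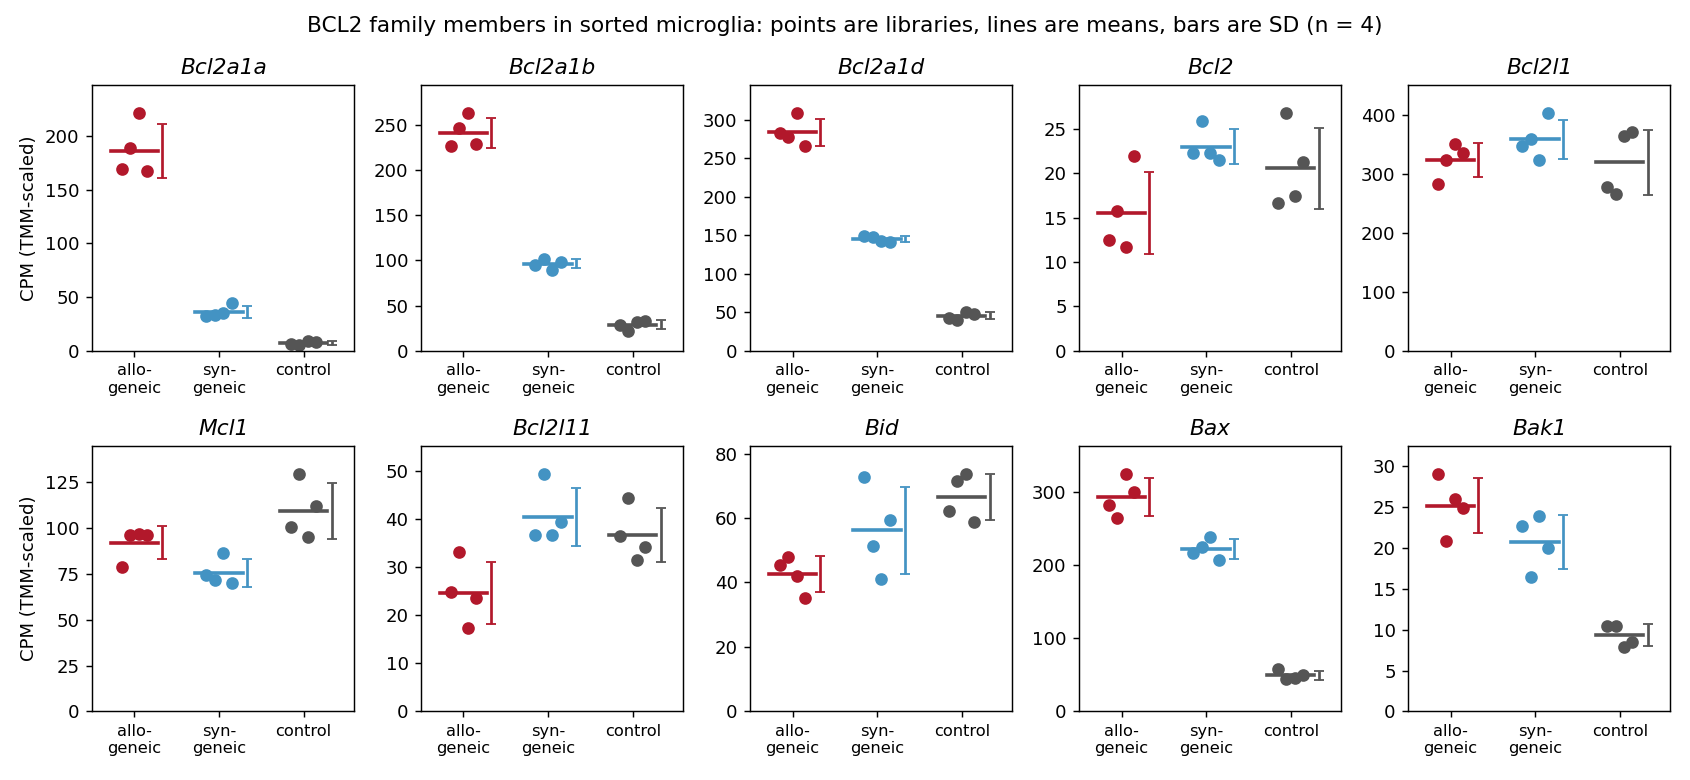
CPM of each family member (y axis, from 0) in allogeneic, syngeneic and control libraries (x axis), with 1 point per library, a line at the mean and a bar for the SD of 4 libraries. The 3 Bcl2a1 copies and Bax step up between groups without overlap, while Bcl2 and Bcl2l1 overlap in all 3 groups. Over all 12695 genes tested, 1603 lay above and 1028 below without overlap in allogeneic against syngeneic, and 3122 and 3231 in syngeneic against control.

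Allogeneic microglia were first compared with syngeneic microglia, which asks what graft-versus-host disease adds to irradiation and transplantation. All 3 Bcl2a1 copies and the effector Bax rose, and the BH3-only gene Bcl2l11 fell. That is 4 members higher and 1 lower of 10; among all genes tested, 10.1% were called higher and 6.38% lower. The median log2 fold change was 0.28 over the members and -0.01 over all genes. Near-identical A1 copies make up 3 of the 4 members that rose, so these counts and the median weigh A1 3 times.

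Bcl2a1a stood at 169, 188, 221 and 167 CPM in allogeneic, 32.6, 33, 34.9 and 44.5 CPM in syngeneic, and 5.82, 4.99, 8.88 and 8.48 CPM in control libraries. The groups were fully separated, with every allogeneic library above every syngeneic library and every syngeneic library above every control library. Its log2 fold change in allogeneic against syngeneic was 2.36 (SE 0.17, edgeR adjusted p = 5.2e-09), a 5.14-fold difference, and in syngeneic against control 2.36 (SE 0.17, edgeR adjusted p = 2.3e-09), a 5.13-fold difference. Against control, allogeneic libraries were 26.4-fold higher (log2 fold change 4.72, SE 0.19, edgeR adjusted p = 2.4e-13).

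Bcl2a1b had 227, 247, 263 and 229 CPM in allogeneic, 94.5, 101, 89.9 and 98.6 CPM in syngeneic, and 28, 22.2, 31.4 and 33.4 CPM in control libraries. Bcl2a1d had 282, 277, 308 and 266 CPM in allogeneic, 149, 148, 142 and 141 CPM in syngeneic, and 43.0, 40.4, 50.5 and 48.0 CPM in control libraries. Both showed the same full separation of the groups, with smaller steps than Bcl2a1a. Set against syngeneic, the allogeneic log2 fold change was 1.33 for Bcl2a1b (SE 0.11, edgeR adjusted p = 3.7e-08) and 0.97 for Bcl2a1d (SE 0.08, edgeR adjusted p = 7.0e-08). For syngeneic over control it was 1.74 for Bcl2a1b (SE 0.11, edgeR adjusted p = 4.2e-10) and 1.67 for Bcl2a1d (SE 0.09, edgeR adjusted p = 2.9e-11). Allogeneic libraries were 8.40-fold above control for Bcl2a1b and 6.23-fold above control for Bcl2a1d.

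Summed over the copies, A1 transcripts reached 679, 713, 793 and 663 CPM in allogeneic, 277, 282, 267 and 284 CPM in syngeneic, and 77.0, 67.6, 90.8 and 90.1 CPM in control libraries. The sum does not depend on how reads were divided between copies, although it does depend on whether shared reads were kept. Its log2 fold change was 1.36 in allogeneic against syngeneic (SE 0.09, edgeR adjusted p = 2.4e-09), 1.77 in syngeneic against control (SE 0.09, edgeR adjusted p = 2.9e-11) and 3.13 in allogeneic against control (SE 0.09, edgeR adjusted p = 1.4e-14). With the offset for GC content and length the rise in allogeneic against control was smaller by over 1.5 times but kept its call, at 2.30 for the sum, 3.89 for Bcl2a1a, 2.24 for Bcl2a1b and 1.81 for Bcl2a1d. With the same offset Bcl2a1d was at 0.56 in allogeneic against syngeneic and still called.

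The copies did not keep a fixed ratio. Bcl2a1a counts divided by Bcl2a1d counts of the same library were 0.598, 0.680, 0.717 and 0.627 in allogeneic, 0.218, 0.224, 0.246 and 0.316 in syngeneic, and 0.135, 0.123, 0.176 and 0.177 in control libraries. Bcl2a1b over Bcl2a1d was 0.804 to 0.890 in allogeneic, against 0.633 to 0.699 in syngeneic and 0.549 to 0.696 in control libraries. Such a ratio within a library is free of scaling between libraries, and that of Bcl2a1a over Bcl2a1d separated all 3 groups. The copies are told apart by few positions of the reference strain, and the donor strain is not given. Whether strain differences at these positions move reads between copies was not tested. The fourth copy, Bcl2a1c, was barely detected, with 140 counts in all allogeneic, 63 in all syngeneic and 22 in all control libraries. It rose in allogeneic against control (log2 fold change 2.91, SE 1.08, edgeR adjusted p = 0.0285). That call was lost without control 1, 2 or 3 or without allogeneic 1 or 3 (edgeR adjusted p 0.0507 to 0.0920), and with no filter on low counts (0.0838).

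Markers of marrow-derived cells were read beside the A1 copies. The 10 markers of engrafted macrophages summed to 11257 to 13696 CPM in allogeneic, 3726 to 4904 CPM in syngeneic and 3541 to 4073 CPM in control libraries, with none at 0. Apoe made up most of these sums, at 6896 CPM in allogeneic, 2347 CPM in syngeneic and 2353 CPM in control libraries. Of the 10 markers 6 rose and 2 fell in allogeneic against syngeneic, where 10.1% of all genes rose and 6.38% fell. In syngeneic against control 7 rose and 2 fell, where 26.4% of all genes rose and 25.6% fell. Cybb had 834 CPM in allogeneic, 105 CPM in syngeneic and 8.54 CPM in control libraries, while Tmem176b, which fell in both comparisons as Tmem176a did, had 304 CPM in allogeneic, 493 CPM in syngeneic and 817 CPM in control libraries. The 9 monocyte markers summed to 99.4 to 142 CPM in allogeneic, 17.3 to 37.1 CPM in syngeneic and 9.91 to 17.5 CPM in control libraries, mostly from Plac8 in allogeneic libraries, with Vcan and Chil3 at 0 in syngeneic libraries. Ccr2 had 1.72 to 7.42 CPM in allogeneic, 6.01 to 10.02 CPM in syngeneic and 6.99 to 12.3 CPM in control libraries. Their part in the A1 values was not tested.

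Bcl2, the founding survival gene of the family, was the least abundant member per kilobase in each group. It had 12.5, 15.8, 11.7 and 21.9 CPM in allogeneic, 22.3, 25.9, 22.3 and 21.5 CPM in syngeneic, and 16.7, 26.7, 17.4 and 21.3 CPM in control libraries. Of the allogeneic libraries, 3 lay below every syngeneic library and the fourth lay among them. The log2 fold change in allogeneic against syngeneic was -0.57 (95% interval -0.98 to -0.16, edgeR adjusted p = 0.0725) and was not called; without allogeneic 4 it was -0.79 and called (edgeR adjusted p = 0.0132), as it was with library totals (-0.77) and with limma-voom (-0.61). The difference was 0.16 in syngeneic against control (95% interval -0.24 to 0.57) and -0.41 in allogeneic against control (-0.82 to 0.0034), neither called; without allogeneic 4 the second was -0.62 and called (edgeR adjusted p = 0.0157), as it was with library totals (-0.78).

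Bcl2l1, which encodes BCL-XL, was the most abundant family member per kilobase in control libraries. It had 283, 324, 351 and 336 CPM in allogeneic, 348, 359, 324 and 403 CPM in syngeneic, and 278, 266, 365 and 371 CPM in control libraries. The groups overlapped, and control libraries 1 and 2 lay apart from control libraries 3 and 4. Log2 fold changes were -0.15 in allogeneic against syngeneic (95% interval -0.36 to 0.06), 0.16 in syngeneic against control (-0.04 to 0.37) and 0.02 in allogeneic against control (-0.19 to 0.23), with no call. Its call changed with the processing: with the GC content and length offset it was called higher in syngeneic against control (0.86) and allogeneic against control (0.83), while with library totals it was called lower in allogeneic against syngeneic (-0.35) and allogeneic against control (-0.36).

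Mcl1, a survival gene with a short-lived product, fell in syngeneic against control. It had 78.6, 96.3, 96.7 and 96.2 CPM in allogeneic, 74.2, 71.5, 86.3 and 69.9 CPM in syngeneic, and 101, 129, 95 and 112 CPM in control libraries. Every syngeneic library lay below every control library, and the log2 fold change was -0.53 (SE 0.11, edgeR adjusted p = 5.9e-04). Allogeneic libraries differed from syngeneic libraries by 0.29 (95% interval 0.07 to 0.50, edgeR adjusted p = 0.0929), not called; without allogeneic 1, which lay below the other allogeneic libraries, it was 0.35 and called (edgeR adjusted p = 0.0472). In allogeneic against control it was -0.25 (95% interval -0.46 to -0.03, edgeR adjusted p = 0.0673), not called; without control 3 it was -0.31 and called (edgeR adjusted p = 0.0305), as it was with library totals (-0.62).

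Bcl2l11, the gene of the BH3-only protein BIM, fell in allogeneic microglia. It had 24.7, 33.1, 17.4 and 23.5 CPM in allogeneic, 36.6, 49.3, 36.6 and 39.4 CPM in syngeneic, and 36.5, 44.4, 31.5 and 34.1 CPM in control libraries. Every allogeneic library lay below every syngeneic library, while allogeneic 2 overlapped the control libraries. The log2 fold change was -0.71 in allogeneic against syngeneic (SE 0.18, edgeR adjusted p = 0.00874) and -0.57 in allogeneic against control (SE 0.18, edgeR adjusted p = 0.0112). Syngeneic libraries differed from control libraries by 0.14 (95% interval -0.20 to 0.49), not called.

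Bid, the BH3-only gene whose product links death receptors to mitochondria, fell in allogeneic against control. It had 45.5, 48.0, 42.1 and 35.3 CPM in allogeneic, 72.8, 51.4, 41.0 and 59.3 CPM in syngeneic, and 62.0, 71.5, 73.6 and 58.9 CPM in control libraries. Syngeneic libraries spread widely and overlapped both other groups, whereas every allogeneic library lay below every control library. The log2 fold change in allogeneic against control was -0.64 (SE 0.15, edgeR adjusted p = 0.00173). The allogeneic difference from syngeneic was -0.39 (95% interval -0.70 to -0.09, edgeR adjusted p = 0.0933), not called; without syngeneic 3 it was -0.52 and called (edgeR adjusted p = 0.0222), as it was with the GC content and length offset (-0.52) and with library totals (-0.60). Between syngeneic and control it was -0.24 (95% interval -0.55 to 0.06), not called; without syngeneic 1 it was -0.39 and called (edgeR adjusted p = 0.0374), as it was with library totals (-0.41).

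The effector Bax had 282, 264, 324 and 300.3 CPM in allogeneic, 216, 224.5, 239 and 206 CPM in syngeneic, and 58.1, 45.0, 45.0 and 50.04 CPM in control libraries. No group overlapped another, and the wide gap lay between the transplanted groups and control. Bax rose 4.47-fold in syngeneic against control (2.16 on the log2 scale, SE 0.10, edgeR adjusted p = 6.2e-12), and in allogeneic against control 5.91-fold (2.56, SE 0.10, edgeR adjusted p = 1.5e-13). It also rose 1.32-fold over syngeneic in allogeneic libraries (0.40, SE 0.09, edgeR adjusted p = 0.00418), a call that was lost with library totals (0.20, edgeR adjusted p = 0.10) and with the GC content and length offset (0.26, edgeR adjusted p = 0.0575).

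Bak1, the second effector, had 29.1, 20.9, 26.0 and 24.9 CPM in allogeneic, 22.8, 16.5, 23.9 and 20.0 CPM in syngeneic, and 10.5, 10.4, 7.88 and 8.53 CPM in control libraries. Both transplanted groups lay above every control library and overlapped each other. It rose 2.23-fold in syngeneic against control (1.16 on the log2 scale, SE 0.18, edgeR adjusted p = 3.5e-05) and 2.70-fold in allogeneic against control (1.43, SE 0.18, edgeR adjusted p = 2.3e-06). With the GC content and length offset these values were 1.80 and 2.14. The allogeneic difference from syngeneic was 0.28 (95% interval -0.07 to 0.63, edgeR adjusted p = 0.351), not called.

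Counted over the comparison of syngeneic with control microglia, which asks what irradiation and transplantation do without a mismatch, 5 members rose (Bcl2a1a, Bcl2a1b, Bcl2a1d, Bax and Bak1) and Mcl1 fell. In that comparison 26.4% of all genes were called higher and 25.6% lower, so change was common. The members' median log2 fold change was 0.66, against -0.03 over all genes. In allogeneic against control 5 members rose and 2, Bcl2l11 and Bid, fell, where 28.2% of all genes were called higher and 29.1% lower. The median was 0.73 over the members and -0.07 over all genes. Each near-identical A1 copy enters these counts and medians as a separate gene, so they are not independent entries.

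**Figure D2:**
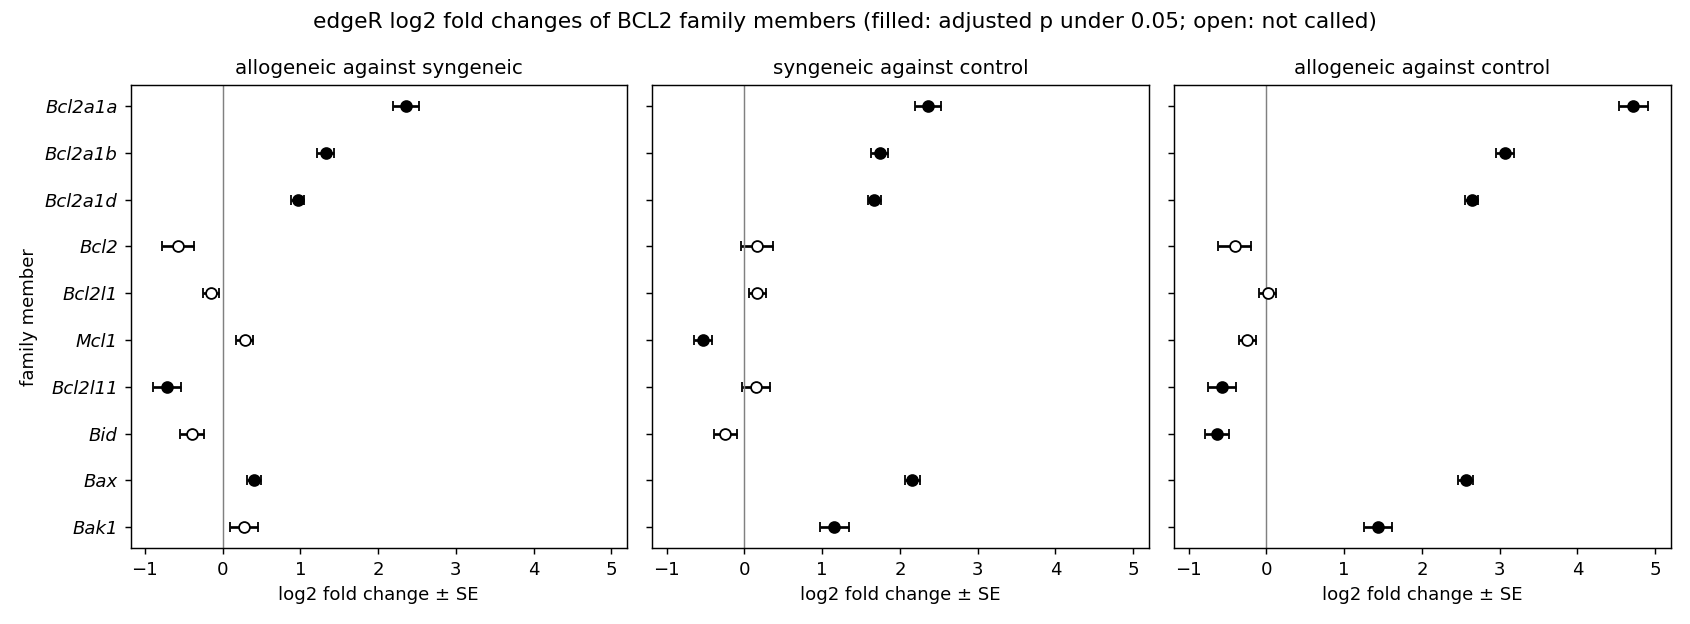
Log2 fold change (x axis, with a bar for the SE) of each family member (y axis) in the 3 comparisons, with filled points for called genes and open points for the rest. Bax sits at 2.16 in syngeneic against control and at 0.40 in allogeneic against syngeneic, whereas Bcl2a1a sits at 2.36 in both.

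Levels of different genes were compared per kilobase of exon length in GENCODE vM21, whose transcript ends may differ from those used in counting. In allogeneic libraries the order was Bax (338 ± 29.6 CPM per kb), Bcl2a1d (328 ± 20.5), Bcl2a1b (295 ± 20.6), Bcl2a1a (227 ± 30.6), Bcl2l1 (83.2 ± 7.51), Mcl1 (26.9 ± 2.61), Bid (19.5 ± 2.53), Bak1 (10.6 ± 1.41), Bcl2l11 (3.58 ± 0.93) and Bcl2 (1.69 ± 0.51), as mean ± SD of 4 libraries. Bax overlapped Bcl2a1d and Bcl2a1d overlapped Bcl2a1b over the 4 libraries, and the other neighbours were separate. In syngeneic libraries Bax also came first (255 ± 15.7 CPM per kb), followed by Bcl2a1d (168 ± 4.72), Bcl2a1b (118 ± 6.10) and Bcl2l1 (92.2 ± 8.44), none overlapping its neighbour. In control libraries Bcl2l1 came first (82.3 ± 14.3 CPM per kb), above Bax (57.2 ± 7.15) and Bcl2a1d (52.7 ± 5.29), and the last 2 of these overlapped.

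The make-up of the survival transcripts differed accordingly. The 3 A1 copies together held 87.1% to 89.3% of the summed CPM per kb of the 6 survival members in allogeneic, 72.8% to 74.3% in syngeneic and 42.3% to 47.0% in control libraries. Bcl2l1 held 8.02% to 9.50% in allogeneic, 19.5% to 22.3% in syngeneic and 36.1% to 40.6% in control libraries. Mcl1 held 2.53% to 3.09%, 4.40% to 5.89% and 12% to 20.0% in the same order of groups, and Bcl2 at most 0.263% in allogeneic, 0.626% in syngeneic and 1.54% in control libraries. Shares of A1, Bcl2l1 and Mcl1 did not overlap between any of the groups. Shares of a fixed whole are tied, so a higher A1 share lowers the others without any change in their own levels. Bcl2l1 itself was called in no comparison as reported, but its call depended on the processing. With the GC content and length offset it was called higher against control in syngeneic (0.86) and allogeneic (0.83) libraries. With library totals it was called lower in allogeneic against syngeneic (-0.35) and against control (-0.36). Mcl1 differed by 0.29 log2 units in allogeneic against syngeneic, not called, and fell in syngeneic against control (-0.53). The shares carry no such offset. Among the 4 death members, Bax held 90.9% ± 1.32 in allogeneic, 86.3% ± 2.28 in syngeneic and 58.9% ± 4.64 in control libraries (SD, n = 4 each).

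**Figure D3:**
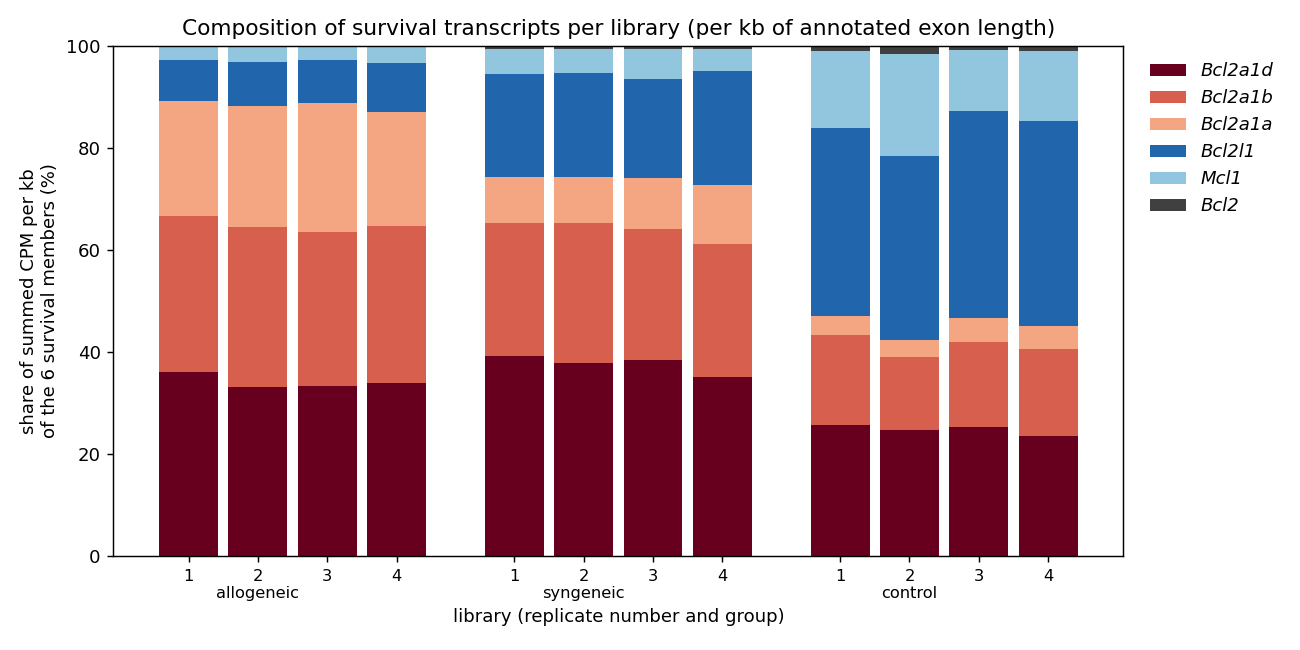
Share of the summed CPM per kb of the 6 survival members (y axis, percent) held by each gene in every library (x axis, 4 per group). The 3 Bcl2a1 segments make up 87.1% to 89.3% of each allogeneic bar and 42.3% to 47.0% of each control bar. No offset for GC content and length enters these shares.

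Ratios between the sides within a library were read as descriptions. All survival over all death members, per kb, was 2.6 ± 0.19 in allogeneic, 1.51 ± 0.12 in syngeneic and 2.21 ± 0.35 in control libraries (SD, n = 4 each). A1 copies over Bax were 2.53 ± 0.21 in allogeneic, 1.30 ± 0.11 in syngeneic and 1.71 ± 0.32 in control libraries. In the transplanted groups the A1 copies and Bax hold most of the survival and death sums, so these ratios are not separate readings. Without an offset for GC content and length, both ratios were highest in allogeneic and lowest in syngeneic libraries by their means. The first overlapped between allogeneic (from 2.42) and control libraries (to 2.55). The second overlapped between syngeneic (to 1.42) and control libraries (from 1.36). Bcl2l1 over Bax was 0.247 ± 0.021 in allogeneic, 0.364 ± 0.054 in syngeneic and 1.46 ± 0.33 in control libraries. These are ratios of transcripts and not of proteins, and they carry no offset for GC content and length. With that offset the log2 fold change in allogeneic against control was 2.30 for the A1 sum and 2.39 for Bax. As reported these were 3.13 and 2.56. In syngeneic against control they were 1.35 and 2.13 with the offset, and 1.77 and 2.16 as reported. Whether the order of the ratios holds with the offset was not tested.

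Other BCL2 family genes were read from a list of 16 found in the table, of which 12 were tested. In allogeneic against syngeneic edgeR called none of them, with 1 at an unadjusted p under 0.05, while DESeq2 called 1 lower and limma-voom none; 1 was called lower without control 3 or without allogeneic 1, and 2 with library totals. Against control, 4 of the 12 rose and 2 fell in syngeneic libraries, while 5 rose and 2 fell in allogeneic libraries. Of all genes tested, 26.4% rose and 25.6% fell in the former comparison, and 28.2% rose and 29.1% fell in the latter. Counts for the lists below stand beside these same shares. For allogeneic over syngeneic the shares were 10.1% higher and 6.38% lower. Whether any list departs from the shares of all genes was not tested. Pmaip1 and Bbc3 encode the p53-induced BH3-only proteins NOXA and PUMA. Pmaip1 had 18.9, 33.5, 16.5 and 25.3 CPM in allogeneic, 17.3, 15.8, 25.7 and 20.6 CPM in syngeneic, and 1.54, 4.35, 0.137 and 1.91 CPM in control libraries. It rose in syngeneic against control (3.34 on the log2 scale, SE 0.61, edgeR adjusted p = 4.2e-04) and in allogeneic against control (3.58, SE 0.62, edgeR adjusted p = 2.1e-04), with values of 4.08 and 4.31 without control 2. Bbc3 had 5.32 ± 0.706 CPM in allogeneic and 5.81 ± 1.26 CPM in syngeneic, against 2.20 ± 0.911 CPM in control libraries (SD, n = 4 each), and rose by 1.28 log2 units in allogeneic against control and by 1.40 in syngeneic against control (SE 0.37 each); the first was 1.89 with the GC content and length offset. The BH3-only gene Bmf went the other way, at 24.3 ± 7.33 CPM in allogeneic and 36.2 ± 3.78 CPM in syngeneic, against 70.5 ± 18.0 CPM in control libraries (log2 fold changes against control -1.54, SE 0.21, and -0.96, SE 0.20). With the GC content and length offset the fall of Bmf in syngeneic against control was not called (-0.42, edgeR adjusted p = 0.112), and that in allogeneic against control was -0.88 and called. Bad, whose product binds BCL-XL, had 46.1 ± 6.62 CPM in allogeneic, 46.4 ± 3.68 CPM in syngeneic and 42.2 ± 2.16 CPM in control libraries and was called in no comparison.

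The p53 list, which shares Bax, Pmaip1 and Bbc3 with the family, had 20 tested genes. In syngeneic against control 12 rose and 4 fell (median log2 fold change 1.43), and in allogeneic against control 13 rose and 4 fell (median 1.49). In allogeneic against syngeneic 3 rose and 1 fell (median 0.16), but 2 fell without control 1 or 4, with library totals, with DESeq2, with the compared groups alone or with the GC content and length offset, and 3 without allogeneic 2, while 1 rose with library totals and 5 with DESeq2. Cdkn1a, the p53-induced brake on the cell cycle, had 297 ± 5.29 CPM in allogeneic and 287 ± 17.5 CPM in syngeneic, against 33.3 ± 4.42 CPM in control libraries. Its log2 fold change in syngeneic against control was 3.11 (SE 0.09, edgeR adjusted p = 1.3e-13), and in allogeneic against syngeneic it was 0.05 (SE 0.09), not called. Fas, a death receptor, rose in all 3 comparisons, at 20.8 ± 1.65 CPM in allogeneic, 5.56 ± 1.52 CPM in syngeneic and 0.285 ± 0.375 CPM in control libraries. Its log2 fold change was 4.30 in syngeneic against control (5.72 without control 4) and 6.21 in allogeneic against control (7.62 without control 4). Btg2, an antiproliferative p53 target, fell in syngeneic against control (-1.87, SE 0.11) and allogeneic against control (-2.18, SE 0.11).

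Downstream of the mitochondria, 13 apoptosome and caspase genes were tested. In allogeneic against syngeneic 1 rose and 1 fell (2 fell without syngeneic 4), in syngeneic against control 2 rose and 3 fell, and in allogeneic against control 2 rose and 4 fell. With library totals the fallen genes numbered 2, 6 and 7 in that order, and none was called higher in the first. Cycs, the gene of cytochrome c, had 174 ± 22.0 CPM in allogeneic, 124 ± 11.5 CPM in syngeneic and 49.99 ± 7.17 CPM in control libraries. It rose in each comparison (log2 fold changes 0.49, 1.30 and 1.80, SE 0.12 each), though the first was not called with library totals (0.29, edgeR adjusted p = 0.0621). Htra2, a mitochondrial protease that antagonises inhibitors of apoptosis, was at 8.25 ± 1.92 CPM in allogeneic and 10.4 ± 2.25 CPM in syngeneic, against 61.0 ± 11.7 CPM in control libraries, and fell in both comparisons with control (-2.89 and -2.55, SE 0.21 each).

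Of 9 tested inhibitors of apoptosis, 3 rose in allogeneic against syngeneic and the others were not called. In syngeneic against control 3 rose and 3 fell, and in allogeneic against control 5 rose and 2 fell (4 fell with library totals or with the GC content and length offset). Birc3, an NF-kappaB target, had 78.5 ± 9.31 CPM in allogeneic, 33.3 ± 7.72 CPM in syngeneic and 31.2 ± 9.04 CPM in control libraries. Its log2 fold change in allogeneic against syngeneic was 1.24 (SE 0.19, edgeR adjusted p = 1.3e-04). Cflar, which encodes the caspase 8 inhibitor cFLIP, had 78.0 ± 4.24 CPM in allogeneic and 62.8 ± 8.39 CPM in syngeneic, against 131 ± 8.09 CPM in control libraries, and fell in syngeneic against control (-1.06, SE 0.10). Its rise in allogeneic against syngeneic (0.31, edgeR adjusted p = 0.0392) was lost in 8 of the 12 fits that left out 1 library (adjusted p 0.053 to 0.138), with library totals (0.457), with no filter (0.0548) and with the compared groups alone (0.0771).

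Of 9 tested genes of the death receptor arm, 3 rose and 1 fell in allogeneic against syngeneic, 3 rose and 3 fell in syngeneic against control, and 4 rose and 4 fell in allogeneic against control. The fall in the first was that of Fadd, an adaptor of death receptors (-0.59, edgeR adjusted p = 0.0260), and was lost without any of syngeneic 1, 3 or 4 or allogeneic 1, 2 or 4 (0.0503 to 0.0776); with library totals 3 fell. With the GC content and length offset 1 fell in syngeneic against control and 2 in allogeneic against control. This list shares Cflar with the inhibitors of apoptosis, and Fas and Tnfrsf10b with the p53 list. Cflar was among its rises in allogeneic against syngeneic, a call that was lost in most fits that left out 1 library. Tnfsf10, which encodes the death ligand TRAIL, had 35.5 ± 10.7 CPM in allogeneic, 7.60 ± 4.37 CPM in syngeneic and 6.87 ± 1.79 CPM in control libraries, and rose in allogeneic against syngeneic (2.22, SE 0.34, edgeR adjusted p = 1.1e-04). Of 12 tested partners and regulators of family turnover, 3 rose in allogeneic against syngeneic with no other call, 9 rose and 2 fell in syngeneic against control, and 9 rose and 1 fell in allogeneic against control (2 fell without control 1, and 3 with library totals). In allogeneic against syngeneic 4 of them were called lower with library totals and 2 with the GC content and length offset. Tpt1, whose product binds MCL1 and BCL-XL, had 693 ± 55.4 CPM in allogeneic, 425 ± 18.2 CPM in syngeneic and 155 ± 22.2 CPM in control libraries (log2 fold changes 0.70 in allogeneic against syngeneic and 1.46 in syngeneic against control, SE 0.09 each); it has pseudogene copies, so its counts are uncertain.

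Among 13 tested genes of microglia survival signalling, 4 rose and 3 fell in allogeneic against syngeneic. The number that fell was 1 without allogeneic 2 and with the GC content and length offset, and 6 with library totals. Csf2rb and Csf2rb2, which encode beta chains of receptors for GM-CSF and related cytokines, rose by 1.02 (SE 0.09) and 1.24 log2 units (SE 0.13); they are near-identical paralogs, so reads may be split between them. Csf2rb had 198 ± 12.1 CPM in allogeneic, 97.8 ± 10.3 CPM in syngeneic and 147 ± 11.1 CPM in control libraries. Csf1r had 2879 ± 170.2 CPM in allogeneic and 3525 ± 337 CPM in syngeneic, against 11490 ± 1079 CPM in control libraries, and fell in all 3 comparisons (log2 fold change -0.29 against syngeneic; against control -2.0 in allogeneic and -1.70 in syngeneic, SE 0.07 to 0.08). With the GC content and length offset the differences from control were -1.29 and -1.12.

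Of 15 tested transcription factors known to act on family genes, 2 rose and 3 fell in allogeneic against syngeneic, 4 rose and 5 fell in syngeneic against control, and 4 rose and 6 fell in allogeneic against control. In the first, 1 fell without syngeneic 4 or without allogeneic 1, and 1 rose in 10 of the 12 fits that left out 1 library, as with library totals, limma-voom, no filter, the compared groups alone or the replicate block. Spi1, the gene of PU.1, had 54.3 ± 8.74 CPM in allogeneic and 60.7 ± 5.54 CPM in syngeneic, against 29.0 ± 1.13 CPM in control libraries, and rose in syngeneic against control (1.06, SE 0.13, edgeR adjusted p = 1.2e-06; 1.66 with the GC content and length offset). The NF-kappaB gene Rela had 55.9 ± 6.07 CPM in allogeneic and 71.4 ± 7.65 CPM in syngeneic, against 156 ± 18.4 CPM in control libraries. It fell in syngeneic against control (-1.12, SE 0.11) and in allogeneic against control (-1.48, SE 0.11), values of -0.35 and -0.56 with the GC content and length offset.

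Genes of like pattern were sought for the 5 members whose group means differed by at least 1 log2 unit, as the smallest root mean square difference in centred log2 CPM over the 12 libraries among 9195 other genes. For Bcl2a1b these were Lyz2 (0.20), itself one of the engrafted macrophage markers, then Ube2l6 (0.22) and Lpl (0.22), and for Bcl2a1d Coa5 (0.10), Rps19 (0.12) and Rps6 (0.14). Bcl2a1a lay nearest to AB124611 (0.31), Sp100 (0.32) and Lilrb4a (0.34). Bax lay nearest to Dck (0.17), Rps27l (0.19) and Anxa3 (0.20), and Bak1 to Chp1 (0.10), Ostc (0.15) and Pdcd6 (0.16).

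Markers of other cells were read beside these results, since A1 and Bcl2 are also expressed in neutrophils and lymphocytes. The 9 neutrophil markers summed to 336 to 398 CPM in allogeneic, 321 to 363 CPM in syngeneic and 543 to 697 CPM in control libraries, nearly all of it from Csf3r; S100a8 and S100a9 stood at 2.23 and 0.958 CPM in allogeneic, against 0.724 and 0.665 CPM in syngeneic and 2.51 and 2.19 CPM in control libraries, and Ltf at 0 in both transplanted groups. The 13 T cell markers summed to 121 to 154 CPM in allogeneic, 116 to 159 CPM in syngeneic and 116 to 135 CPM in control libraries, nearly all from Il7r; Cd3e was at 0.0853 CPM in allogeneic and at 0 in the other groups. The 8 NK and cytotoxic markers summed to 21.6 to 36.4 CPM in allogeneic libraries. Their sums were 0 to 1.97 CPM in syngeneic and 0 to 1.57 CPM in control libraries. Ncr1, Gzma and Prf1 were at 0 in all groups and Klrk1 carried most of the sum. Klrb1c had 0.854 to 1.77 CPM in allogeneic, at most 0.0446 CPM in syngeneic and 0 CPM in control libraries. Klrk1 and Klrb1c, the only markers of this list tested, rose in allogeneic against syngeneic and against control. The 10 choroid plexus markers summed to 423 to 799 CPM in allogeneic, 1446 to 2525 CPM in syngeneic and 21.9 to 147 CPM in control libraries. The part of these cells in the family's values was not tested.

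**Figure D4:**
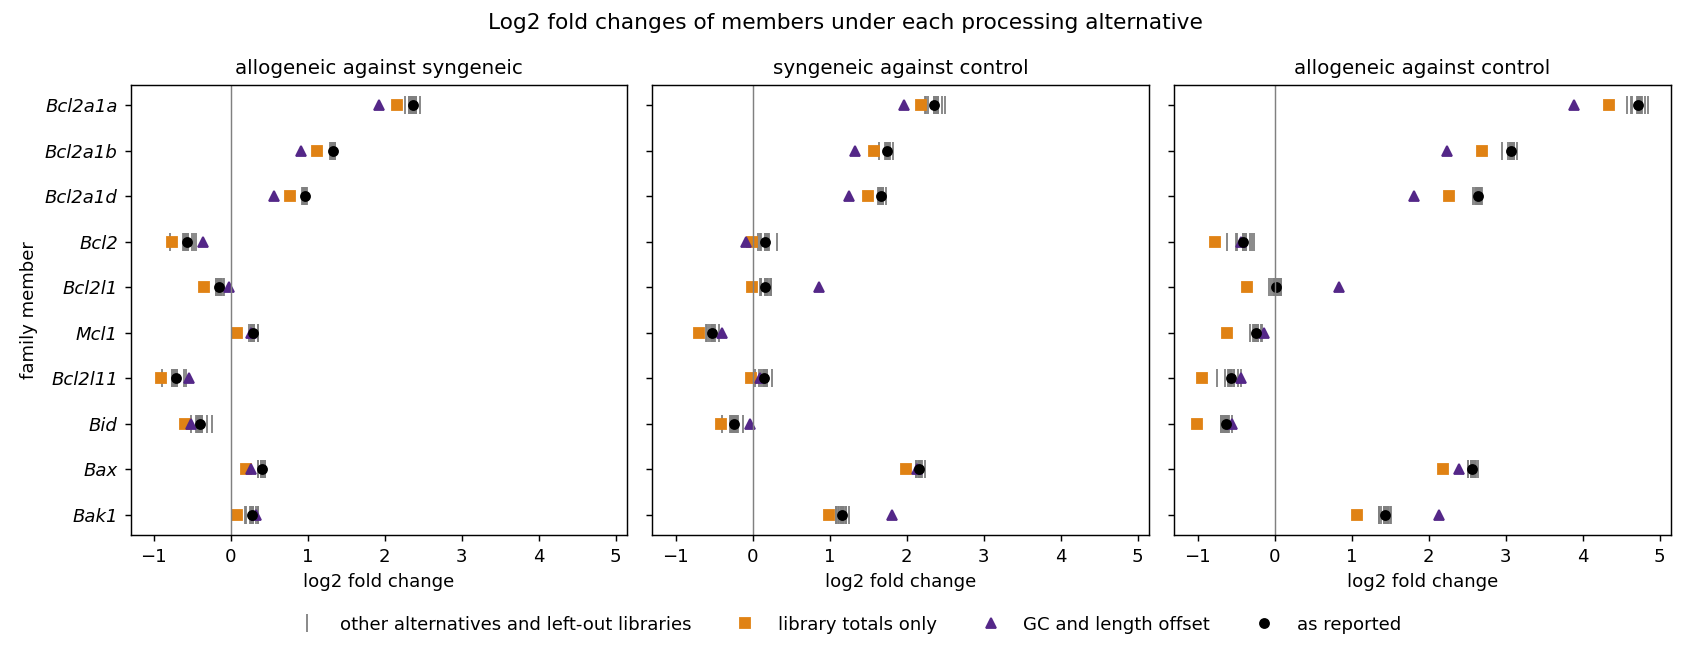
Log2 fold change (x axis) of each family member (y axis) in the 3 comparisons as reported (black circles), with library totals (orange squares), with an offset for GC content and exon length (purple triangles), and under the other alternatives and with each library left out (grey ticks). The Bcl2a1 copies stay above 0 in all panels, while Bcl2l1 in allogeneic against control lies between -0.36 and 0.83.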

How the data were processed

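The authors deposited 1 table of raw read counts per gene symbol (24328 symbols, 12 libraries), whose values are whole numbers. The tools named in the submitters' processing notes are Trimmomatic 0.36 (trimming) and STAR 2.5.2b (alignment), with the build mm9. Per the labels' protocols, RNA was extracted with the Picopure kit. The sources used here do not name the counting tool, annotation, strand setting or treatment of shared reads. The reference at hand is another build (GRCm38), so no coordinates were matched to the counts; 23298 symbols matched GENCODE vM21 directly and 676 through a synonym.

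CPM and tests were made from these counts with edgeR 4.0.16 (R 4.3.3). After TMM scaling and filterByExpr (minimum count 10), 12695 of 18018 detected genes entered 1 robust quasi-likelihood model with 1 mean per group, no covariate and all 12 libraries. The SE is the log2 fold change divided by the root of the F statistic, and 95% intervals are 1.96 SE to each side. The method was tested on simulated counts. Named genes are the 10 members, other tested BCL2 family genes, and up to 3 called genes with the smallest p per pathway list and comparison. Values of such a gene in a further comparison, and single cell type markers, are given beside it and were chosen after their values were seen. Some genes of the lists are not reported here by name; counts and sums of lists include them. The members and lists were chosen with earlier results of these data known. Alternatives were RLE factors, library totals, no filter, 1 CPM in 4 libraries, DESeq2 1.42.0, limma-voom (limma 3.58.1), the compared groups alone, the replicate number as a block, a loess offset (span 0.3) for GC content and length, and each library left out. Totals of 32652208 to 46126118 counts put a floor of 3 counts per group at 0.0181 to 0.0202 CPM, for counting error only.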

Additional observations from a re-analysis of the deposited data

Results flagged for a closer look

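Mcl1 in allogeneic 1 stood at 78.6 CPM, apart from the other 3 allogeneic libraries at 96.2 to 96.7 CPM, a gap that was 0.975 of the group's range (limit 0.829 for 4 libraries). It was the 1 library found to stand apart among 66 sets of 4 libraries checked over the tested family genes, where chance alone would mark about 1 in 20. Without it, Mcl1 was called higher in allogeneic against syngeneic (log2 fold change 0.35, edgeR adjusted p = 0.0472).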

How the results depend on the processing

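With library totals in place of TMM factors, all genes moved down together (medians in the report), and the number of fallen members was 4 in allogeneic against syngeneic, 2 in syngeneic against control and 5 in allogeneic against control, against 1, 1 and 2 as reported. Calls over all genes then split into 844 higher and 2108 lower (reported 1288 and 810), 2723 and 3968 (reported 3357 and 3253), and 2453 and 5259 (reported 3576 and 3697), in the same order of comparisons. Under library totals 4 family values changed sign: Bcl2 to -0.0101, Bcl2l1 to -0.0045 and Bcl2l11 to -0.025 in syngeneic against control, and Bcl2l1 to -0.36 in allogeneic against control; Vdac2, a channel gene of the partner list, was at -0.011 in allogeneic against syngeneic. With the GC content and length offset Bcl2 was at -0.083 in syngeneic against control and Bnip3l at -0.064 in allogeneic against control. In allogeneic against syngeneic, limma-voom, the offset and the replicate block each gave 2 fallen members. The cause of these changes was not tested.

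Leaving out 1 library gave 1 to 2 fallen members in allogeneic against syngeneic and 1 to 2 in syngeneic against control, and moved Bcl2l1 in allogeneic against control between -0.0739 and 0.0883, including -0.046 and -0.074 without control 1 or 2 and -0.024 and -0.0027 without allogeneic 3 or 4. The replicate numbers do not pair the libraries: 0 of 12 correlations of same-numbered libraries were over 0.1 (-0.0085 to 0.039). In 4 of these 12 pairs a library correlated best with its own number among the 4 libraries of the other group. With the number as a block, 2002, 6507 and 7200 genes were called, and Bcl2 was called lower in allogeneic against syngeneic (-0.61, edgeR adjusted p = 0.0449). Of the members' fold changes, 279 under other settings and 386 with a library left out kept direction and call, 2 and 0 lost it, 11 and 6 gained one, and 5 and 4 changed sign. The low counts of Bcl2a1c and the reads shared between copies limit what can be said of single copies.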
